A study of Mus musculus with 8 samples.

Results

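The elastic fibre genes encode elastin, the fibulins and microfibril glycoproteins that scaffold it, and the enzymes that cross-link it. Here 10 mouse genes were listed by symbol: *Eln*, *Fbn1*, *Fbln1*, *Fbln2*, *Fbln5*, *Efemp2*, *Mfap4*, *Mfap5*, *Lox* and *Loxl1*. All probes annotated to these symbols were taken, which gave 10 probes for 8 of the genes, out of 24613 probes and 15968 named genes in all. *Fbn1* and *Efemp2* had no probe under their symbols and were not analysed here. A probe was tested when some sample type detected it on each of its 2 arrays, that is with a detection p under 0.05 against the negative control beads. By this filter 12389 probes were tested, among them 8 elastic fibre probes of 7 genes. The only *Fbln5* probe and the dimmer of the *Fbln1* probes were detected on none of the 8 arrays, with log2 signals of 4.43 to 4.70 and 4.40 to 4.54, and were not tested.

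RNA of C57BL/6 mice was hybridised to 8 Illumina MouseRef-8 beadchips, 2 for each of 4 sample types. Fresh WT stroma (genotype LTbR+/+) and fresh LTβR-KO stroma (genotype LTbR-/-, lacking the lymphotoxin β receptor throughout the body) were what stayed on a mesh after the spleen was rubbed through it. WT splenocytes (LTbR+/+) were the cells washed through the mesh, and cultured WT stroma (LTbR+/+) consisted of the adherent cells of minced spleen, kept in medium with 10% FBS for 3 to 4 weeks (passage 2 to 3). Mice were 8 to 10 weeks old. All 4 types are mixed cell populations, so fewer cells of a type and less RNA per cell cannot be told apart. The legend of the study's cluster analysis calls the 2 arrays of a type biological replicates, whereas the description of the series has 1 extract hybridised to both arrays. The p-values below therefore measure the spread between arrays, which may be technical only.

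The arrays had median bead signals of 55.9 to 66.6 and 9900 to 11283 detected probes, and the 2 arrays of a type correlated at 0.984 to 0.992 over the tested probes. The number of arrays limits the precision. *Ltbr*, the targeted gene, gave log2 signals of 6.41 and 6.77 on the WT and 6.78 and 7.14 on the LTβR-KO arrays of fresh stroma. Splenocytes gave 5.40 and 5.63, and cultured cells 6.62 and 6.96. It was not lower in the arrays labelled LTβR-KO. The position of its probe relative to the disrupted part of the gene is not given in the sources used here, so this does not test the genotype, which is taken from the labels alone.

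Elastin is secreted as a soluble monomer, laid down on a scaffold of fibrillin microfibrils with the help of fibulins, and made insoluble by lysyl oxidases, copper enzymes that join its lysines. The fibres give elastic recoil to artery walls, and in the spleen they also lie in the capsule and trabeculae. Smooth muscle cells, fibroblasts and endothelial cells are the usual makers of these proteins.

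Promoter windows (250 bases before to 50 bases after the transcript start, RefSeq, build GRCm38.p6) were held for 3 of the 8 genes with a probe, *Fbln1*, *Fbln2* and *Fbln5*. Those of *Fbln2* (chr6:91212514-91212813, + strand) and of 1 of 2 *Fbln1* starts (chr15:85205758-85206057, + strand) are shown, since these fibulins changed in opposite directions in LTβR-KO stroma (below). Neither change was called in every alternative analysis. Capitals mark matches, on either strand, to the GC box GGGCGG and, in *Fbln1*, also to the NF-kappaB consensus.
Fbln2: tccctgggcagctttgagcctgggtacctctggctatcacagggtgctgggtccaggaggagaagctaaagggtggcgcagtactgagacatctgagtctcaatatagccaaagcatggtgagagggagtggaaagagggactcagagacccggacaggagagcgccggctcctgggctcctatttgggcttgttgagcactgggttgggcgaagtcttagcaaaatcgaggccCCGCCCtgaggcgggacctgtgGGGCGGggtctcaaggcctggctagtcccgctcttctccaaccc
Fbln1: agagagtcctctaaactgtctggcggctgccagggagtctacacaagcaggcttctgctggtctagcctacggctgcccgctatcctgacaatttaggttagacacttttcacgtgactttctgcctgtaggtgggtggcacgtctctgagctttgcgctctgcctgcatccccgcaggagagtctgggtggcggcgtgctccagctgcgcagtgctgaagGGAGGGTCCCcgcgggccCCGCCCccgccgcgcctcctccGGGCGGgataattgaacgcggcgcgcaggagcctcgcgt
The *Fbln2* window held 2 GC boxes and no match to the NF-kappaB consensus, to AP-1 (TGANTCA), to the CArG box of serum response factor or to the TATA box (TATAAA). The *Fbln1* window held 2 GC boxes and 1 NF-kappaB consensus match, which lay upstream of them without overlap, and none of the other motifs. Of all 32851 promoter windows of this length, 35.7% held a GC box, 8.46% an NF-kappaB match, 7.81% an AP-1 match, 1.63% a CArG box and 13.6% a TATA box. These matches are a description of letters only.

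**Figure D1:**
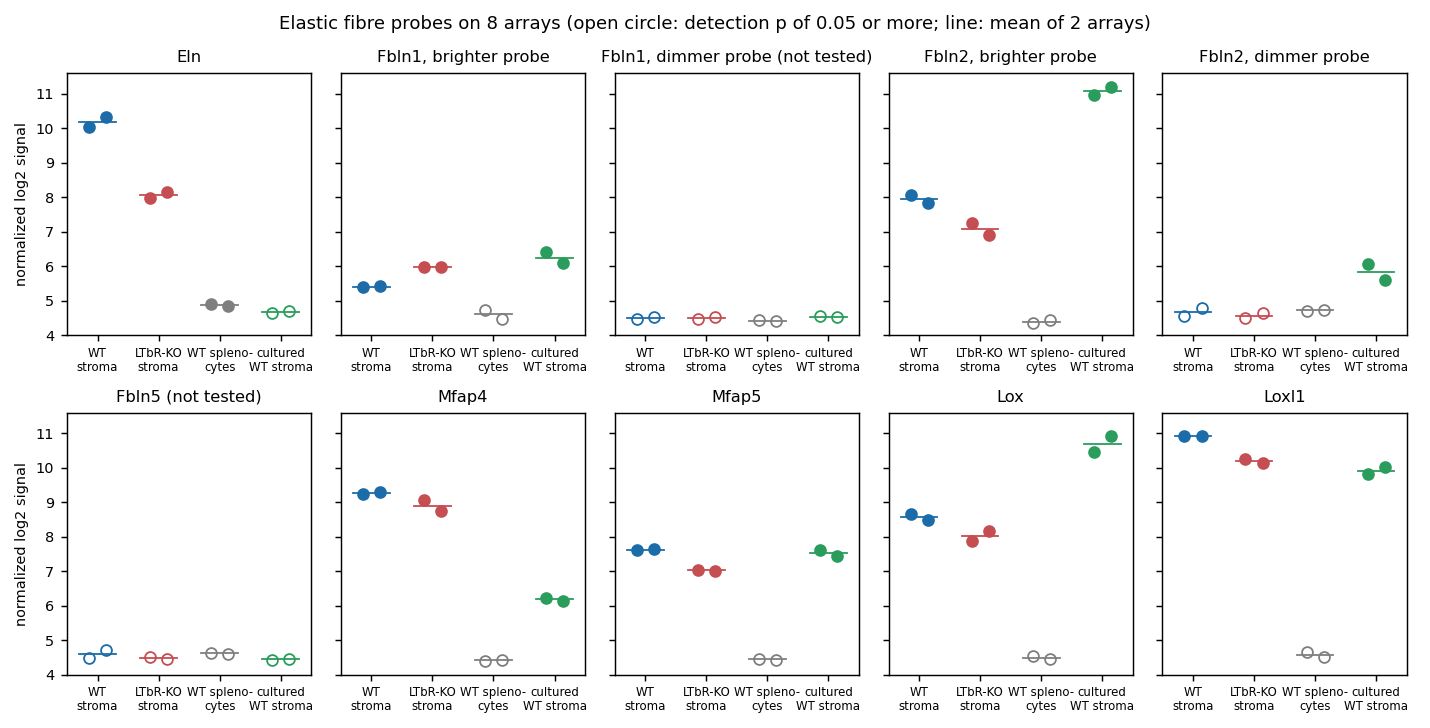
Normalised log2 signal (y axis) of each elastic fibre probe on every array, by sample type (x axis); open circles mark arrays on which the probe was not detected and lines mark the mean of 2 arrays. *Eln* was brightest in WT stroma at 10.04 and 10.32 and at 4.65 and 4.70 in cultured stroma, whereas the brighter *Fbln2* probe and *Lox* were brightest in cultured stroma.

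Levels are given below as log2 of the background-corrected, quantile-normalised signal. Different probes bind their targets differently, so levels are compared between sample types for 1 probe and not between genes. *Eln*, which encodes tropoelastin, the core of the fibre, gave 10.04 and 10.32 on the WT stroma arrays and 7.98 and 8.15 on the LTβR-KO stroma arrays. In splenocytes it gave 4.91 and 4.83, with detection p-values of 0.0499 and 0.0450, and in cultured stroma 4.65 and 4.70, where it was not detected. WT stroma was thus highest and LTβR-KO stroma second, and no array of one fresh stroma reached those of the other. Splenocytes and cultured stroma both lay at or near background.

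The fibulins are secreted glycoproteins that bind elastin and its scaffold. *Fbln2*, whose product bridges elastin and other matrix proteins, gave 8.07 and 7.83 in WT stroma, 7.27 and 6.92 in LTβR-KO stroma and 10.98 and 11.19 in cultured stroma with its brighter probe. The splenocyte arrays gave 4.36 and 4.43 and did not detect it. Cultured stroma was highest, then WT stroma, then LTβR-KO stroma, with no overlap between these 3. The dimmer *Fbln2* probe was detected in cultured stroma only, at 6.07 and 5.61, and stayed between 4.50 and 4.79 on the other 6 arrays. *Fbln1*, which encodes a fibulin of basement membranes and elastic fibres, was dim throughout. Its brighter probe gave 5.39 and 5.42 in WT stroma, 5.97 on both LTβR-KO stroma arrays, 6.40 and 6.10 in cultured stroma and 4.73 and 4.48, not detected, in splenocytes. LTβR-KO and cultured stroma both lay above WT stroma. *Fbln5*, which guides elastin onto microfibrils, has no level here beyond a signal below detection in every sample type.

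The microfibril-associated glycoproteins were measured by 1 probe each. *Mfap4*, whose product binds elastin, fibrillin and collagen, gave 9.23 and 9.30 in WT stroma and 9.05 and 8.75 in LTβR-KO stroma. Cultured stroma gave 6.23 and 6.14, and splenocytes 4.40 and 4.42, where it was not detected. Fresh stroma of both genotypes was far above cultured stroma. *Mfap5*, whose product (MAGP-2) sits on fibrillin microfibrils, gave 7.60 and 7.64 in WT stroma, 7.04 and 7.01 in LTβR-KO stroma and 7.61 and 7.42 in cultured stroma. Splenocytes gave 4.45 and 4.43 and did not detect it. The cultured and the fresh WT arrays of *Mfap5* overlapped.

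The cross-linking enzymes differed from each other in cultured stroma. *Lox*, which encodes lysyl oxidase, gave 8.65 and 8.48 in WT stroma, 7.87 and 8.15 in LTβR-KO stroma and 10.44 and 10.91 in cultured stroma. Splenocytes, at 4.52 and 4.44, did not show it. *Loxl1*, whose product is a lysyl oxidase needed for elastin upkeep in mice, gave 10.91 on both WT stroma arrays, 10.24 and 10.13 in LTβR-KO stroma, 9.82 and 10.01 in cultured stroma and 4.65 and 4.50, not detected, in splenocytes. *Lox* was highest in cultured stroma, whereas *Loxl1* was highest in fresh WT stroma.

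WT stroma was compared with WT splenocytes to see which elastic fibre genes belong to the stromal fraction. All 7 tested genes were higher in stroma, and 6 of them were detected on no splenocyte array. Those 6 entered the test only because a stromal sample type detected them, so the filter favoured this direction. The counts in this comparison are therefore no independent support for it. *Loxl1* was at least 66.2-fold higher (adjusted p = 5.83e-10 by limma's test with Benjamini-Hochberg adjustment) and *Mfap4* at least 21.1-fold. *Lox* was at least 13.0-fold, *Fbln2* at least 8.52-fold and *Mfap5* at least 6.76-fold higher. *Fbln1* was at least 1.45-fold higher (adjusted p = 0.00124). "At least" means that, where a probe was not detected, the lowest signal with which any probe was detected on that array, or its own if higher, was used in its place. *Eln* was 39.6-fold higher than its barely detected splenocyte signal (difference 5.31, SE 0.15 on the log2 scale, adjusted p = 1.27e-09). By probe, 7 of 8 were called higher at an adjusted p under 0.05, beside 24.2% of all tested probes called higher, 31.6% lower and 55.8% either way. The dimmer *Fbln2* probe, undetected in both types, differed by −0.050 (95% interval −0.44 to 0.34). Arrays of both types did not overlap for 7 of the 8 probes, beside 78.5% of all tested probes.

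The comparison of LTβR-KO with WT stroma gives the genes whose signal differs between the 2 genotypes, and does not show that a gene depends on the receptor. *Eln* had the largest difference among the members. It was 4.32-fold lower in LTβR-KO stroma, a fall of 2.11 (SE 0.15, 95% interval −2.44 to −1.78, adjusted p = 3.12e-05 by limma's test, n = 2 arrays per group). This change ranked 19 from the lowest of 12389 tested probes. *Fbln2* fell by 0.86 (SE 0.17, 1.82-fold, adjusted p = 0.00812), *Loxl1* fell by 0.73 (SE 0.14, 1.66-fold, adjusted p = 0.00846) and *Mfap5*, whose sign turned with 1 later centring (0.011), fell by 0.60 (SE 0.14, 1.51-fold, adjusted p = 0.0174). *Fbln1* alone rose among the 7 tested genes, by 0.56 (SE 0.15, 1.48-fold, adjusted p = 0.0395). *Lox* and *Mfap4* did not pass the test. *Lox* differed by −0.56 (95% interval −0.96 to −0.16, adjusted p = 0.0727) and *Mfap4* by −0.37 (−0.69 to −0.041, adjusted p = 0.139).

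By probe, 4 of 8 were called lower and 1 higher in LTβR-KO stroma, beside 7.15% of all tested probes called lower, 5.30% higher and 12.5% either way. Arrays of both genotypes did not overlap for 7 of the 8 probes, beside 52.1% of all tested probes. The median change over the 7 genes was −0.60, and over all tested probes 0.016. Leaving out WT array 1 or LTβR-KO array 2 left *Fbln2* at adjusted p = 0.0647 and 0.0508. *Mfap5* lost its call in 5 of 14 alternative analyses and *Fbln1* in 10, each array left out in turn included, whereas *Eln* and *Loxl1* kept theirs in all 14. The centring given further down is not among these 14.

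**Figure D2:**
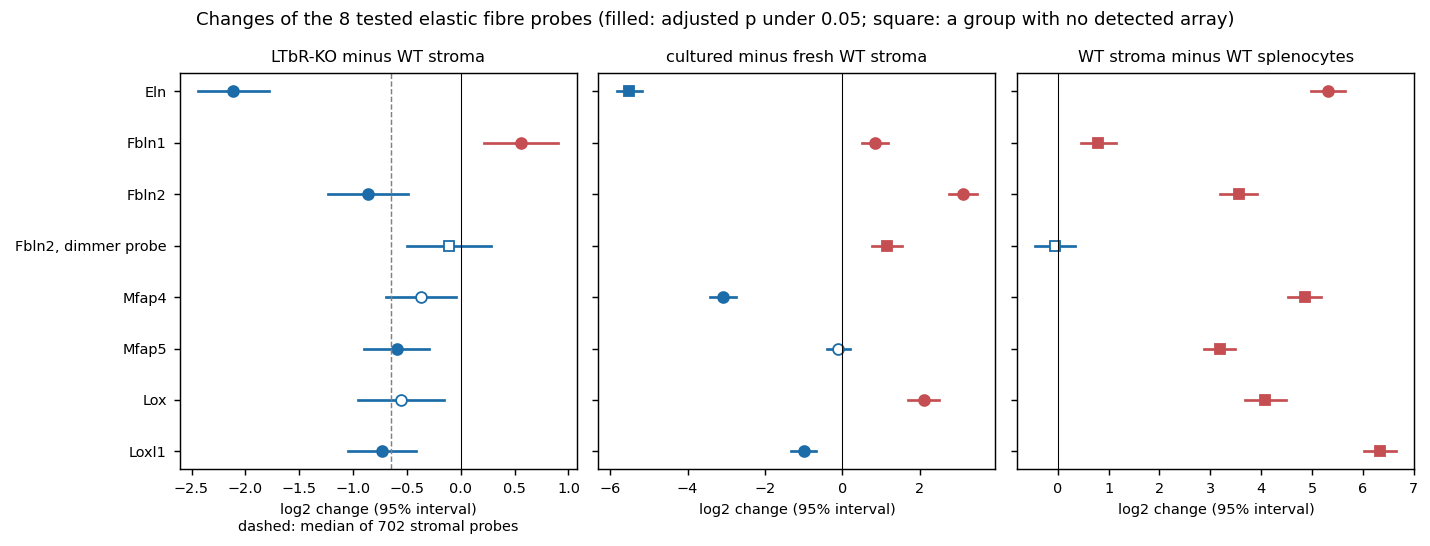
Log2 change (x axis) with its 95% interval for each tested elastic fibre probe (y axis) in 3 comparisons; filled points passed an adjusted p of 0.05, squares mark fitted values where 1 or both groups had no detected array, and the dashed line marks the median change of 702 strongly stromal probes. In LTβR-KO stroma *Eln* lay at −2.11, well below the dashed line at −0.65, and *Fbln1* at 0.56 above it, while 5 other genes had intervals that included it.

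LTβR-KO stroma carried a lower signal of stromal probes in general. For 702 tested probes the WT stroma signal was at least 4-fold that of splenocytes, and their median change was −0.65. For the 478 probes that met this in LTβR-KO stroma it was −0.51. The 702 were picked by the same WT arrays, which favours a fall, and the 478 by the LTβR-KO arrays, which favours a rise. Neither median is therefore a neutral reference. The intervals of *Fbln2*, *Loxl1*, *Mfap5*, *Lox* and *Mfap4* included both medians. *Eln* ranked 12 from the lowest among the 702 and 5 among the 478. With every array centred on the 702 or the 478 probes, a scaling added after the data were seen, *Eln* was still lower, by −1.51 (adjusted p = 9.87e-05) and −1.66 (adjusted p = 7.82e-05). *Fbln1* was then higher by 1.17 (adjusted p = 0.000427) and 1.01 (adjusted p = 0.00187). *Mfap5* stood at 0.011 and −0.15, *Loxl1* at −0.12 and −0.28 and *Fbln2* at −0.25 and −0.41, and none of these 3 passed the test on either centring. Such centring shifts all probes, so 75.1% and 54.0% of all tested probes were called with it.

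Marker signals of several cell types moved between the genotypes too, and their part in the elastic fibre changes was not tested. Smooth muscle markers fell for 6 of 9 tested genes, with a summed linear signal of 30831 to 34382 in WT and 19161 to 20552 in LTβR-KO stroma. Endothelial markers fell for 6 of 9 (9899 to 10869 against 7355 to 8408). Fibroblast markers rose for 3 of 10 and fell for 1 (4770 to 5422 against 6447 to 7003). The risers were *Col3a1*, *Dpt* and *Thy1*, and *Pdpn* fell. Of this list only *Thy1* was called lower in WT stroma than in splenocytes, where the list summed to 2657 to 2665. The sum is therefore not a measure of fibroblasts alone. B cell markers rose for 4 of 6 (4592 to 5371 against 10622 to 11602) and T cell markers for 7 of 7 (1833 to 2077 against 4184 to 4960). Pancreatic acinar markers rose for 8 of 8 (4118 to 4849 against 16319 to 17185). Erythroid markers rose for 1 of 4, macrophage markers rose for 1 of 7 and fell for 2, and adipocyte markers fell for 1 of 3. Every tested marker but *Lum* and *Trem2* was detected on at least 1 array of each fresh stroma.

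**Figure D3:**
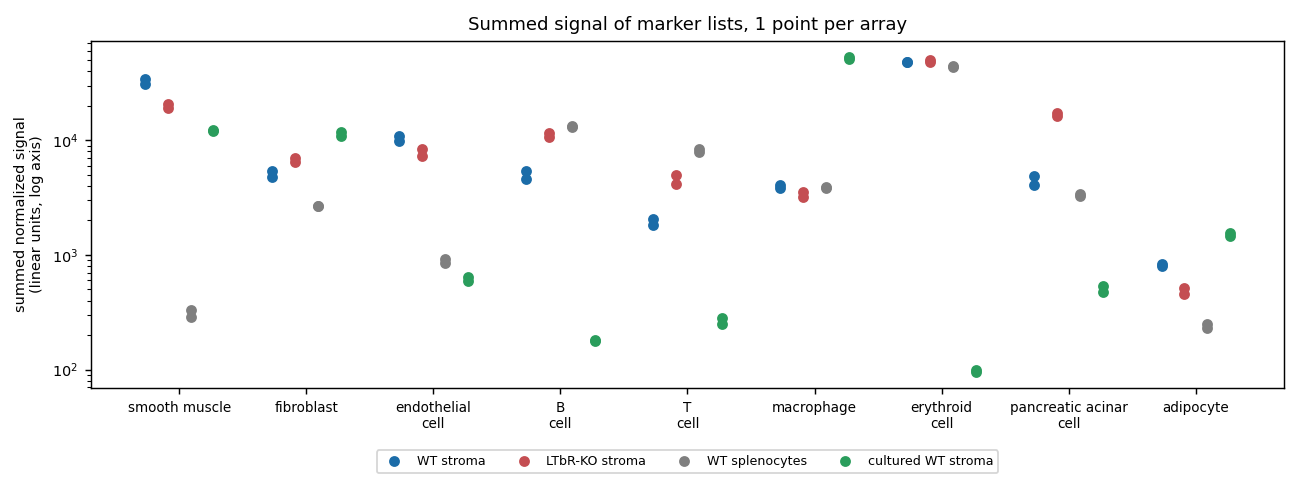
Summed linear normalised signal (y axis, log scale) of the tested genes in each marker list (x axis), with 1 point per array. LTβR-KO stroma arrays lay below WT stroma arrays for the smooth muscle, endothelial, macrophage and adipocyte lists. They lay above them for the fibroblast, B cell, T cell and pancreatic acinar lists. Macrophage markers were highest in cultured stroma.

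Culture of stroma without lymphocytes was compared with fresh WT stroma. *Eln* was at least 36.9-fold lower in culture and was lost below detection (fitted change −5.51, SE 0.15, adjusted p = 5.97e-10 by limma's test). *Mfap4* fell by 3.08 (SE 0.15, 8.47-fold, adjusted p = 3.40e-08) and *Loxl1* was 2.00-fold lower (SE 0.14 and 95% interval −1.32 to −0.69 on the log2 scale, adjusted p = 0.000106). Scaling to the 75th percentile took *Loxl1* to −0.28 (adjusted p = 0.190). *Fbln2* rose by 3.13 with its brighter probe (SE 0.17, 8.75-fold, adjusted p = 7.14e-08), and its dimmer probe was at least 2.04-fold higher. *Lox* rose by 2.11 (SE 0.18, 4.32-fold, adjusted p = 2.45e-06) and *Fbln1* by 0.85 (SE 0.15, 1.80-fold, adjusted p = 0.000649). *Mfap5* did not pass the test (−0.10, 95% interval −0.40 to 0.20, adjusted p = 0.516).

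Thus 3 of the 7 genes rose in culture and 3 fell, so that elastin and the enzyme *Lox* moved in opposite directions. By probe, 4 of 8 were called higher and 3 lower. Among these 4 is the dimmer *Fbln2* probe, which passed the filter through cultured stroma alone. Its rise there was thus favoured by the filter and adds no support to that of the brighter probe. Most tested probes changed in culture, with 33.8% of them called higher, 31.0% lower and 64.8% either way. The share of elastic fibre probes called is therefore not far above that of the array, and the sizes and directions of single genes are what this comparison gives. Arrays of both types did not overlap for 7 of the 8 probes, beside 82.4% of all tested probes. The falls of *Eln* and *Mfap4* ranked 60 and 311 from the lowest of 12389 probes, and the rises of *Fbln2* and *Lox* ranked 149 and 557 from the highest. The 702 stromal probes had a median change of −1.58 in culture, but they were picked by these same fresh WT arrays, which favours a fall. The 478 picked by the LTβR-KO arrays had a median change of −1.86.

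The cell types in culture also differed from those in fresh stroma, and their part in these changes was not tested. Smooth muscle markers fell for 9 of 9 tested genes (summed signal 12158 to 12209 in culture) and endothelial markers for 9 of 9 (594 to 640). Of the endothelial markers, *Cdh5*, *Cldn5*, *Pecam1*, *Plvap*, *Sox18* and *Tek* were detected on neither cultured array. Fibroblast markers rose for 4 of 10 and fell for 4 (10918 to 11889 in culture). Macrophage markers rose for 7 of 7, from 3806 to 4040 in fresh stroma to 51513 to 53843. Every tested fibroblast gene was detected on at least 1 cultured array, but the list moved both ways and a large macrophage signal stood beside it. The label of the cultured samples as stroma is therefore taken from their titles, and the markers do not settle it. B cell, T cell, erythroid and pancreatic acinar signals were each lower than in fresh stroma. The summed signal of the 3 adipocyte markers was 1452 to 1556 in culture against 801 to 830 in fresh stroma, with *Lpl* higher and *Adipoq* lower and detected on neither cultured array.

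Genes of the wider elastic fibre pathway were read from 3 lists, each gene by its brightest tested probe. Microfibril and fibre-associated genes had 13 tested genes of 16 on the array. In LTβR-KO stroma 5 of them fell, none rose and 8 did not pass the test, with a median change of −0.40, beside 7.15% of all tested probes called lower and 5.30% higher. The fallers were all 4 latent TGF-β binding proteins and *Tgm2*, a transglutaminase that cross-links matrix proteins. *Ltbp1* fell by 0.90 (SE 0.16, adjusted p = 0.00447) from 5.91 and 6.01 in WT to 4.88 and 5.24 in LTβR-KO stroma. *Ltbp3* fell by 0.77 (SE 0.17, adjusted p = 0.0150), though its 2 dimmer probes did not pass (−0.46 and −0.42). *Ltbp4*, whose product promotes the deposition of elastin, fell by 0.72 (SE 0.15, adjusted p = 0.0106), from 10.08 and 10.13 to 9.36 and 9.41. *Ltbp4* lost its call without WT array 1 (adjusted p = 0.0657), and *Ltbp3* without WT array 2 (0.0927) or LTβR-KO array 1 (0.0695). A fit of only the 2 compared groups ended the *Ltbp3* call too (adjusted p = 0.0629). The falls of these binding proteins are near the −0.65 median of stromal probes. With the arrays centred on the 702 probes *Ltbp1*, *Ltbp3* and *Ltbp4* stood at −0.30, −0.16 and −0.11, and none passed the test. Centred on the 478, *Ltbp1* still passed, and *Ltbp3* and *Ltbp4* did not (−0.32 and −0.27).

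In culture 9 of these 13 genes fell and 3 rose, beside 31.0% and 33.8% of all tested probes. Of the fallers, *Ltbp4* and *Adamtsl2* passed the filter only through fresh stroma, which favoured this direction. *Ltbp4* was at least 35.1-fold lower and was detected on neither cultured array, at 4.45 and 4.51, as *Eln* was not. *Adamtsl2*, whose product binds microfibrils, was at least 10.4-fold lower, and *Mfap3*, a microfibril-associated gene, fell by 1.41 (adjusted p = 8.11e-06). *Emilin2*, an elastin microfibril interface gene, rose by 1.77 (adjusted p = 1.77e-05), *Mfap2*, which encodes MAGP-1, by 0.62 (adjusted p = 0.00513) and *Ltbp1* by 0.50 (adjusted p = 0.0155). The dimmer *Mfap2* probe, detected on all arrays of both types, did not pass (0.18, 95% interval −0.19 to 0.55, adjusted p = 0.367). Without cultured array 2 or WT array 2 the *Ltbp1* call was lost, at changes of 0.43 and 0.45. The authors' own normalised values ended it too (0.59, adjusted p = 0.0616). *Ltbp1* and *Ltbp4* thus moved in opposite directions in culture while both fell in LTβR-KO stroma. The comparisons share the WT stroma arrays. Against splenocytes, 11 of the 13 were higher in WT stroma and 1 lower, beside 24.2% and 31.6% of all tested probes. *Adamtsl2*, *Emilin1*, *Ltbp1* and *Ltbp3* were detected on no splenocyte array, and *Ltbp2* and *Ltbp4* on 1 of 2. They passed the filter only through a stromal sample type, which favoured this direction. The count is therefore no independent support for it. *Ltbp2*, which encodes an elastic fibre protein that binds fibulin-5 in mice and humans, was 117-fold and *Ltbp4* 43.4-fold above a splenocyte signal that 1 of 2 arrays detected, and *Ltbp3* at least 21.8-fold. *Emilin2* was lower in WT stroma than in splenocytes by −0.80 (adjusted p = 0.00535, and 0.0539 without WT array 1).

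Of the assembly and cross-linking genes 4 of 8 were tested. In LTβR-KO stroma *Bmp1*, the protease that frees active lysyl oxidase from its precursor, fell by 0.61 (adjusted p = 0.0405), and the other 3 did not pass. Leaving out LTβR-KO array 2 or either WT array ended that call (adjusted p = 0.210, 0.226 and 0.0524), as did the mean of its tested probes (−0.42, adjusted p = 0.0701). The call was also lost with the authors' own normalised values (adjusted p = 0.0953) and with 75th percentile scaling (0.0503). No filter on dim probes (0.0891) and a fit of only the 2 compared groups (0.112) ended it too. Centred on the 702 or the 478 stromal probes *Bmp1* stood at −0.0053 and −0.16 (adjusted p = 0.979 and 0.451). In culture *Loxl2*, a further enzyme of the lysyl oxidase family, rose by 2.00 (adjusted p = 2.71e-06), from 5.31 and 5.42 to 7.26 and 7.48, and *Fn1*, fibronectin, by 1.87 (adjusted p = 3.18e-06). *Bmp1* fell by 0.64 (adjusted p = 0.00692) and *Atp7a*, a transporter that loads copper into secreted enzymes, fell by 0.56 (adjusted p = 0.0205). *Bmp1* lost this call without cultured array 2 (adjusted p = 0.0535) or WT array 1 (0.0576) or as the mean of its probes (0.0578), and *Atp7a* without cultured array 1 (0.141), WT array 1 (0.0620) or WT array 2 (0.0665). Scaling to the 75th percentile ended both calls (adjusted p = 0.121 for *Bmp1* and 0.0818 for *Atp7a*). No filter on dim probes ended that of *Atp7a* (0.0568). Of the other *Bmp1* probes, the brighter fell by 0.67 (adjusted p = 0.00148). The dimmest, detected on all arrays of both types, differed by 0.33 (95% interval 0.022 to 0.64, adjusted p = 0.0582). *Lox*, *Loxl2* and *Fn1* thus rose in culture, and *Loxl1* and the brightest *Bmp1* probe fell. All 4 genes were higher in WT stroma than in splenocytes, beside 24.2% of all tested probes, *Bmp1* by 3.45, *Fn1* by 2.12 and *Atp7a* by 1.22. *Loxl2* was detected on 1 of 2 splenocyte arrays and passed the filter only through stroma, which favoured this direction.

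Of the genes for elastin breakdown and the elastin receptor, 11 of 12 were tested, and in LTβR-KO stroma 4 rose and 1 fell, beside the 5.30% and 7.15% given above. The rises were of *Elane*, neutrophil elastase, by 1.27 (2.42-fold, adjusted p = 0.000746), of *Prtn3*, proteinase 3, by 1.22 (2.33-fold, adjusted p = 0.000672), of *Ctsg*, cathepsin G, and of *Ctss*, cathepsin S, by 1.14 (adjusted p = 0.0321). *Elane* went from 6.18 and 6.54 in WT to 7.52 and 7.75 in LTβR-KO stroma, with 6.45 and 6.51 in splenocytes. *Elane*, *Prtn3* and *Ctsg* are granule genes of neutrophils and their precursors, and are not genes of stromal cells. *Mmp2*, a gelatinase made by stromal cells, fell by 0.62 (adjusted p = 0.0174), near the −0.65 median of stromal probes. Centred on the 702 or the 478 probes it stood at −0.018 and −0.18 (adjusted p = 0.915 and 0.341). Its call was also lost with only the 2 compared groups in the fit (adjusted p = 0.0596). The *Ctss* call depended on the processing. It was lost without background correction (adjusted p = 0.0819), with an offset of 50 (0.115) and with cyclic loess (0.0735). The authors' own normalised values (0.0597) and no filter on dim probes (0.163) ended it too. Leaving out any 1 of the 4 arrays ended the *Ctss* call, and leaving out either WT array or LTβR-KO array 2 that of *Mmp2* (adjusted p = 0.0535, 0.0962 and 0.0654).

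In culture 7 of these 11 genes rose and 3 fell, beside 33.8% and 31.0% of all tested probes. *Mmp12*, macrophage elastase, was at least 16.9-fold higher, from signals below detection to 8.54 and 9.26. It passed the filter through cultured stroma alone. Its rise there, and its part in the count, were thus favoured by the filter. *Ctss* rose by 2.79 (adjusted p = 1.31e-05) and *Mmp9* by 2.67 (adjusted p = 1.33e-07), and *Ctsk*, *Ctsa*, *Glb1* and *Neu1* rose as well. *Prtn3*, *Elane* and *Ctsg* were lost below detection, at least 3.55-fold, 2.61-fold and 1.88-fold lower. The 7 genes that rose did so in the arrays where the macrophage markers given above were higher, *Prtn3*, *Elane* and *Ctsg* moved the opposite way to those markers, and *Mmp2* stood at −0.17 (adjusted p = 0.320). The part of macrophages was not tested. Against splenocytes, *Mmp2* was at least 34.9-fold and *Ctsk* at least 4.52-fold higher in WT stroma and *Ctss* was 2.00-fold lower. *Mmp2* and *Ctsk* were detected on no splenocyte array and passed the filter only through stroma, which favoured their direction. *Ctsa* was 1.91-fold higher by its brightest probe and 2.37-fold lower by another detected probe (adjusted p = 0.000424 and 9.87e-05), so its probes disagree. The *Ctss* call was lost without WT array 2 (adjusted p = 0.0620) or splenocyte array 1 (0.113). An offset of 50 (adjusted p = 0.0691), cyclic loess (0.0551) and no filter on dim probes (0.0943) ended the *Ctss* call against splenocytes too. The mean of the 3 *Ctsa* probes was −0.092.

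**Figure D4:**
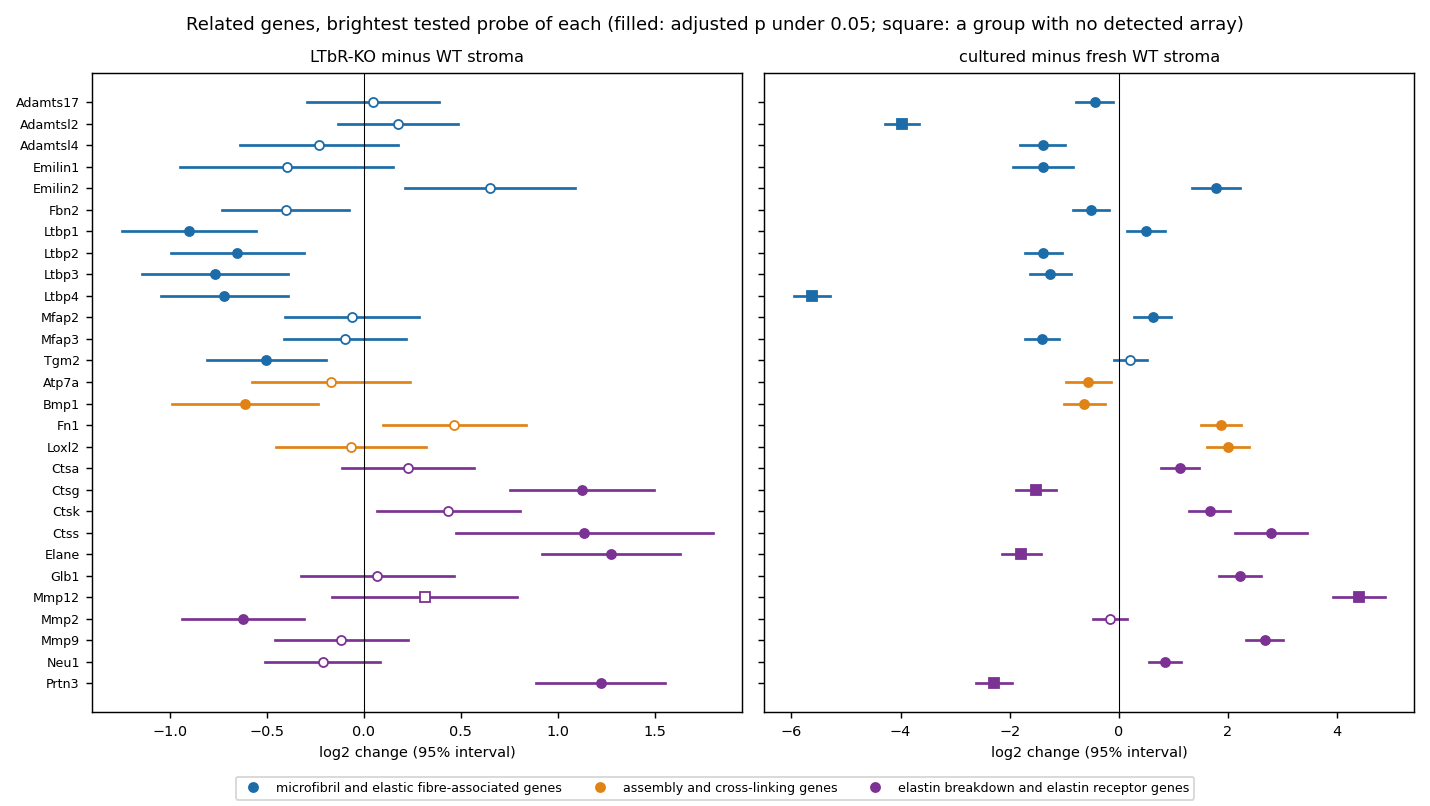
Log2 change (x axis) with its 95% interval for the related genes (y axis), in LTβR-KO against WT stroma and in cultured against fresh WT stroma, coloured by list, with filled points at an adjusted p under 0.05 and squares where 1 or both groups had no detected array, so that the point is a fitted value and not a measured size. In LTβR-KO stroma the falls of microfibril genes lay between −0.90 and −0.50, and in culture *Ltbp4* was at least 35.1-fold lower and *Mmp12* at least 16.9-fold higher.

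The elastic fibre genes did not share 1 pattern over the arrays. Over the 8 arrays, which are 4 sample types in pairs, the log2 signals of *Lox* and *Fbln2* correlated at r = 0.976 and those of *Mfap5* and *Loxl1* at 0.983. *Eln* and *Mfap4* gave r = 0.905, *Eln* and *Lox* 0.149 and *Eln* and *Fbln2* −0.033. These are descriptions, since the points share the sample types. The 5 tested genes whose pattern was most like that of *Eln* were *Sox18* (r = 0.999), *Cd300lg* (0.998), *Tnnt2* (0.997), *Lgi3* (0.997) and *Hs3st3a1* (0.997). *Sox18*, a transcription factor of endothelial cells, had mean signals of 8.53 on WT stroma arrays, 7.02 on LTβR-KO stroma arrays, 4.55 with splenocytes and 4.42 with cultured cells. Those most like *Lox* were *Sgcb* (0.998), *Gpr176* (0.996), *Ccn4* (0.996), *Slc6a8* (0.995) and *Gpx8* (0.995). *Ccn4*, a matricellular protein gene of the CCN family, had means of 6.43, 6.27, 4.39 and 7.79 in the same order. The first group was lost in culture and the second was brightest there.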

How the data were processed

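RNA was measured with Illumina MouseRef-8 beadchips. The authors deposited 2 tables. The first holds non-normalised bead intensity values with a detection p-value per probe and array, and the second holds intensity values that the authors had normalised by cubic spline with background subtraction in GenomeStudio, with 61 to 92 empty cells and 7394 to 7406 values below 0 per array. The genome build is not given in the sources used here. Probes were named by the platform's gene annotation.

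From the bead intensities, background was corrected by normexp with parameters from the detection p-values (offset 16), and log2 values were quantile-normalised. Probes that some sample type detected on both of its arrays (p under 0.05) entered the test in R 4.3.3 with limma 3.58.1 (lmFit, eBayes) in 1 fit over all 8 arrays. P-values were adjusted by Benjamini-Hochberg over all 12389 tested probes. This takes the place of the GenomeStudio test of the methods, and 4 residual degrees of freedom remained. The fit was tested on simulated data. Figures were drawn with matplotlib 3.10.9.

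Every member with a probe was named. Of each related list, up to 3 called genes with the largest rise and up to 3 with the largest fall were named per comparison, and for *Eln* and *Lox* the 5 genes of highest Pearson r. *Tgm2*, *Ctsg* and the further genes named as rising in culture were named after their values were seen. The members, the lists and the marker genes were chosen with earlier results of these data known. Alternatives covered background correction, scaling, the filter, the fit, the pairing of replicates and each array left out.

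Replicate numbers were not used as pairs. The differences between replicates 2 and 1 gave r = 0.285 for WT with LTβR-KO stroma and −0.142 to 0.108 for other types.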

Additional observations from a re-analysis of the deposited data

How the results depend on the processing

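In LTβR-KO against WT stroma, 5 elastic fibre probes were called. The count was 3 with scaling to the 75th percentile and 3 with only the 2 compared groups in the fit, and 2 to 4 with 1 array left out (2 without WT array 1 or LTβR-KO array 2, 3 without WT array 2). With centring on stromal probes, chosen after seeing the data, it was 3 and 2. Over all tested probes the count was 1543. It was 1019 with 75th percentile scaling, 760 with only 2 groups, 710 to 1460 with 1 array left out (710 without WT array 1, 965 without LTβR-KO array 2), and 9301 and 6687 with the centrings. The other alternatives gave 4 or 5 members and 1212 to 1586 probes. Of 113 values for single members, 94 kept direction and call, 17 lost the call and 2 changed sign. The adjusted p ranged from 4.53e-06 to 0.00364 for *Eln*, 0.00270 to 0.0499 for *Loxl1*, 0.00688 to 0.0647 for *Fbln2*, 0.00912 to 0.0774 for *Mfap5* and 0.0180 to 0.151 for *Fbln1*, and *Lox* and *Mfap4* were called in none of 14.

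Sign changes were confined to values that were not called in the main analysis, apart from *Mfap5* with centring and *Ctsa*. The dimmer *Fbln2* probe gave 0.12 (75th percentile) between genotypes and −0.22 to 0.0013 with 1 array left out (0.0013 without WT array 2). For WT stroma against splenocytes it gave 0.052 (cyclic loess), 0.080 (75th percentile) and −0.16 to 0.062 with 1 array left out (0.062 without WT array 1). *Mfap5* gave 0.037 (cyclic loess) and 0.11 (75th percentile) in culture. *Ctsa* gave −0.092 against splenocytes as the mean of its probes. With the first centring the dimmer *Fbln2* probe gave 0.50, *Lox* 0.049, *Mfap4* 0.24 and *Mfap5* 0.011. With the second, the dimmer *Fbln2* probe gave 0.34 and *Mfap4* 0.080. The cause of these shifts was not tested.

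The count of 7 called members held in culture under all alternatives except 75th percentile scaling (6), and that of 7 against splenocytes held under all. With the replicate number as a block the counts were 5, 7 and 7, with 1509, 8003 and 6857 of all probes. The block changed no call of a member or a named related gene. The numbers only name the arrays, since 2 pairs per comparison cannot show pairing.

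With 2 arrays a group, signals near background (*Fbln1*, the dimmer *Fbln2* probe) rest on small differences above the negative controls, and *Fbln5* gave no measurement. Normalisation assumes similar signal distributions in all sample types.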
